A study of Capra hircus with 3 samples.

Results

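Metallothionein-4 (MT-4), the other metallothioneins and the antioxidant enzymes of goat skin were followed with 15 probes of a sheep expression array. The 15 probes carry 11 of the 14314 gene identifiers of the array and were taken from its 15008 non-control probes, 14977 of which could be tested. A probe was included if the array named its gene LOC100125618, which is MT-4, or if its description held the name of a metallothionein or of an antioxidant enzyme family. The names searched for were superoxide dismutase, catalase, glutathione peroxidase, glutathione S-transferase, peroxiredoxin and thioredoxin. MT-4 had 2 probes and MT3, which was the sole other metallothionein found in this way, had 2 probes. The other 11 probes measured superoxide dismutase 1 (SOD1), superoxide dismutase 2 (SOD2, 2 probes), glutathione peroxidase 1 (GPX1), thioredoxin (TXN, 2 probes), 4 proteins with a thioredoxin domain, and a record named after a bacterial thioredoxin peroxidase. The descriptions of 0 probes held catalase, glutathione S-transferase or peroxiredoxin.

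The study compared the skin of 6 adult female Arbas Cashmere goats aged 2 years. The 3 goats of the short photoperiod group grazed, were fed and could drink from 9:30 to 16:30 each day. They spent the remaining time in a dark shed at about 0.1 lux, which was 1 °C cooler than the air outside. The 3 goats of the natural photoperiod group grazed under natural conditions. Skin was cut from a single side of the animal in July, and each of the 3 arrays held RNA of 1 goat from each group, both goats having the same parent. The short photoperiod RNA carried the dye Cy5 and the natural photoperiod RNA carried Cy3 on every array, so the dyes were swapped on 0 arrays and a dye bias of a probe is part of its ratio. The shed changed temperature as well as light. The short photoperiod group also had set hours for grazing, feeding and drinking, and no such hours are given for the natural group. These differences and light cannot be told apart. The values are fluorescence intensities of goat RNA on sheep probes. A level was therefore compared between goats within a probe, or within a fixed list of probes, and not between genes. The summed level of a list adds the intensities of its probes, so the brightest probes weigh most in it. The number of arrays limits the precision, and a two-sided sign test over 3 arrays cannot give a p below 0.25.

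Metallothioneins are small proteins rich in cysteine that bind zinc and copper and can also scavenge reactive oxygen species. MT-4 is known from differentiating stratified squamous epithelium, whereas MT3 was first known from brain. The antioxidant enzymes work in sequence. Superoxide dismutases turn superoxide into hydrogen peroxide, SOD1 in the cytosol with copper and zinc and SOD2 in mitochondria with manganese, and catalase and the selenoenzyme GPX1 remove the peroxide. Thioredoxin keeps protein thiols reduced and supplies electrons to the peroxiredoxins.

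The 4 metallothionein probes are shown because the comparison of MT-4 with MT3 rests on what these probes can tell apart. Each is 60 bases long and is printed 5′ to 3′ as the array files give it. In the MT-4 mRNA probe, designed on the record NM_001105260, and in both MT3 probes, designed on NM_001009755, the capitals mark the cysteine codons (TGC or TGT) of the open reading frame. In the MT-4 skin EST probe, designed on an expressed sequence tag from adult sheep skin (CF116117), the capitals mark the stretch that is the exact reverse complement of the MT-4 mRNA probe.
MT-4 mRNA probe: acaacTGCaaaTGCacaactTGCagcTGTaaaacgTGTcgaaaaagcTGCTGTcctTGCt
MT-4 skin EST probe: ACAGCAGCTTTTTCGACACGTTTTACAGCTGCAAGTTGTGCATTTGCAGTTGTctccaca
MT3 probe A: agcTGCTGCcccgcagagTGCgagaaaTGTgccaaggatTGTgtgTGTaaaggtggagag
MT3 probe B: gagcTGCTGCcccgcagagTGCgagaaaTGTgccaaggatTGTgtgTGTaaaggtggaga

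The sequences showed 1 site of each gene. The MT-4 mRNA probe held 8 cysteine codons among 19 codons, and MT3 probe A held 6 among 20. The pair of MT-4 probes were complementary over 53 bases, so they lie on opposite strands of the same stretch of MT-4. The methods name both labelled cRNA and labelled DNA, and which strand was labelled is not settled here. The MT3 probes shared 59 bases and were a repeated measurement of 1 site, not separate evidence. The longest run shared by the MT-4 mRNA probe and an MT3 probe was 8 bases, and beyond the partner of the same gene no other probe of the array shared a run of 20 bases with any of the 4. In the goat gene table (RefSeq, ARS1.2 assembly) MT3 and MT4 stand next to each other on chromosome 18 with 0 genes between them. The record accessions of 0 members were in that table, since the array was designed on sheep records, and 5 members had an identifier equal to a goat symbol. The array files name no genome build, so no coordinates are given.

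MT-4 was higher in the short photoperiod goat on every array by the mRNA probe, but by very unequal amounts, and it did not pass the test. The normalized log2 intensity of this probe was 15.48, 15.64 and 15.71 in the short photoperiod goats of arrays 1, 2 and 3. In the natural photoperiod goats of the same arrays it was 15.38, 14.73 and 13.03. The groups did not overlap, which in the higher direction held for 1 of the 15 members and for 6.49% of all tested probes, but the natural goat of array 1 lay just under the short photoperiod goats and the natural goat of array 3 lay far under all others. The log2 ratios of short over natural photoperiod were 0.11, 0.91 and 2.68, with a mean of 1.23 ± 1.32 (SD, n = 3), which is 2.35-fold. The 95% interval of the mean ran from -0.03 to 2.50, and the adjusted p from limma with Benjamini-Hochberg adjustment over all tested probes was 0.279. Without array 3 the mean was 0.51, and without array 1 it was 1.80. The study selected this gene on these same arrays, so its ratio is not independent evidence of a direction.

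The difference between arrays lay in the natural photoperiod goats. The normalized log2 level of the MT-4 mRNA probe spanned 2.35 over the natural goats and 0.23 over the short photoperiod goats. Over all tested probes these spans stood at the 99.0 percentile for the natural goats and the 22.9 percentile for the short photoperiod goats. A natural span at least as large was seen in 145 probes (0.968%), and 2 probes (0.0134%) also had a short photoperiod span no larger than that of MT-4. Both counts include the MT-4 mRNA probe itself, and both limits were set at its own values, so they describe this probe and test nothing. The same pattern stood in the intensities before any normalization, which were 69720, 86315 and 91627 in the short photoperiod goats and 24924, 17163 and 5949 in the natural goats. In bulk skin, fewer cells that make a transcript and less of it per cell cannot be told apart.

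The MT-4 skin EST probe gave the same order of arrays at a lower ratio. Its normalized log2 level was 15.44, 15.64 and 15.87 in the short photoperiod goats and 15.72, 14.95 and 13.69 in the natural goats. Here the groups overlapped, because on array 1 the natural goat was the higher of the pair. The log2 ratios were -0.28, 0.69 and 2.18, with a mean of 0.86 ± 1.24 (SD, n = 3), an interval of -0.33 to 2.06 and a limma adjusted p of 0.380. Without array 3 the mean was 0.20 and without array 1 it was 1.44. The mRNA probe exceeded the EST probe by 0.39, 0.22 and 0.51 on the 3 arrays, so a 2-fold rule was passed by the mRNA probe and not by its complement. Of all tested probes 0.427% had a mean ratio of at least 2-fold, and of the 15 members the MT-4 mRNA probe was the 1 that did. A mean at least 2-fold lower was seen in 0 members and in 0.414% of all tested probes.

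**Figure D1:**
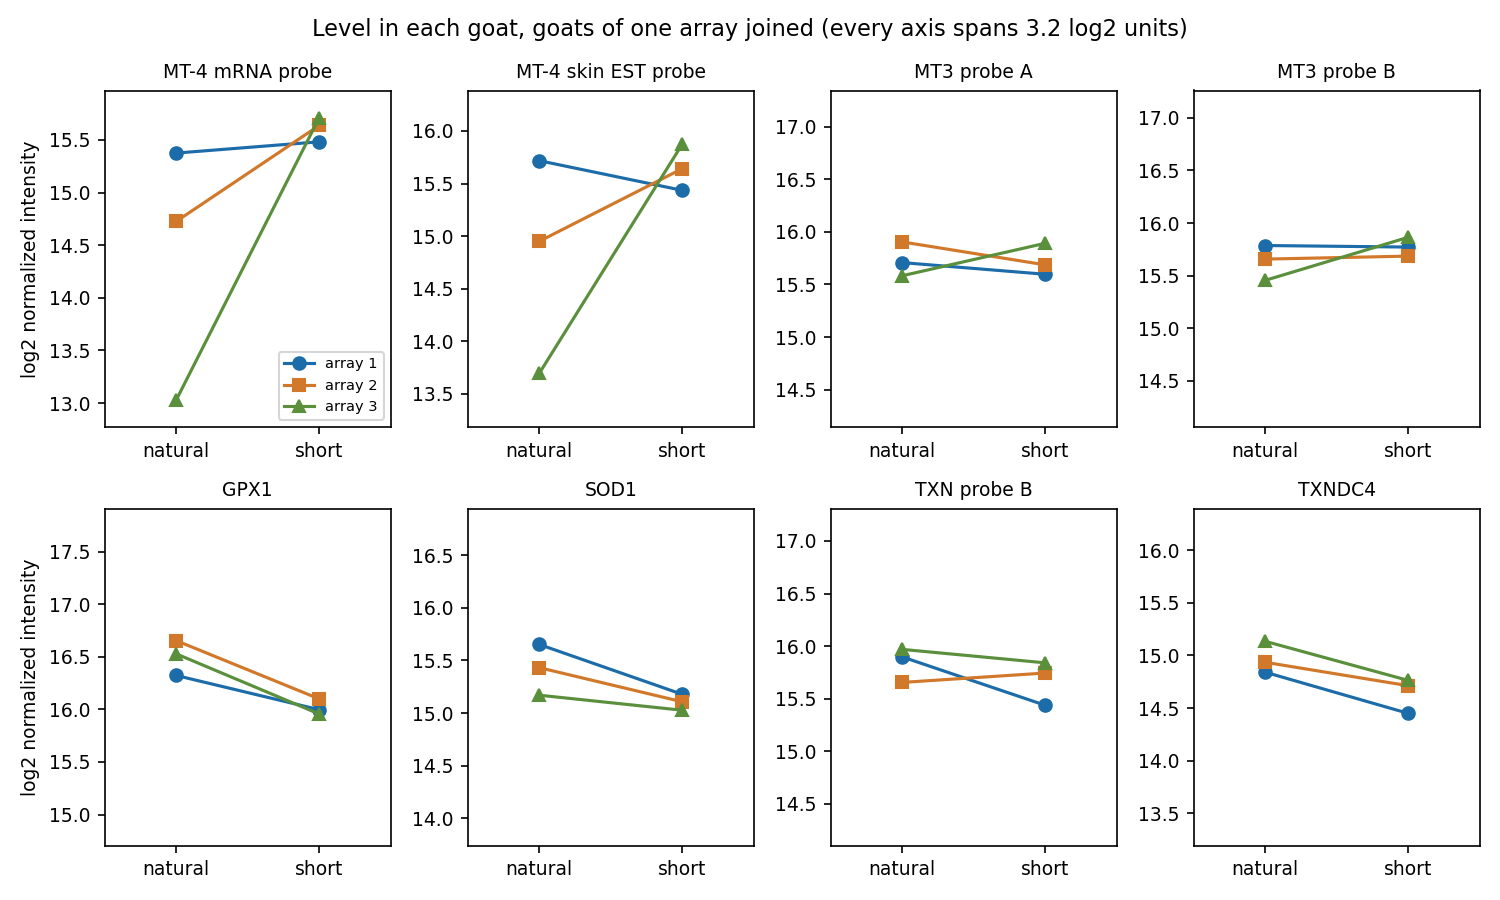
Normalized log2 intensity (vertical axis) of 8 of the 15 probes in each goat under natural and short photoperiod, with a line joining the 2 goats of an array and every panel spanning the same number of log2 units. The MT-4 mRNA probe ran from 13.03 to 15.38 in the natural goats and from 15.48 to 15.71 in the short photoperiod goats, while MT3 probe A stayed between 15.58 and 15.90 in all 6 goats.

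MT3 differed little between the groups. MT3 probe A was at a normalized log2 level of 15.60, 15.69 and 15.89 in the short photoperiod goats and 15.71, 15.90 and 15.58 in the natural goats. MT3 probe B was at 15.77, 15.69 and 15.86 in the short photoperiod goats and 15.79, 15.66 and 15.45 in the natural goats. The groups overlapped with both probes, and the natural goat of array 3 was the lowest of the 6 with both. The mean log2 ratio was -0.01 ± 0.28 (SD, n = 3) for probe A, with an interval of -0.36 to 0.35, and 0.14 ± 0.23 for probe B, with an interval of -0.19 to 0.47. Neither passed the test (adjusted p of 0.982 and 0.581 from limma). These intervals lie inside a 2-fold change in either direction. With median centring the means were 0.77 and 0.91 and both probes passed the test, with adjusted p of 0.0414 and 0.0345 from limma.

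The comparison of MT-4 with MT3 within each array removes what both probes of an array share. The log2 ratio of the MT-4 mRNA probe exceeded the mean of the MT3 probes by 0.17 on array 1, 1.01 on array 2 and 2.33 on array 3. The mean difference was 1.17 ± 1.09 (SD, n = 3), with 3 of 3 arrays in this direction. The study selected MT-4 on these same arrays, so this direction is not independent evidence. A two-sided sign test over 3 arrays could not give a p below 0.25 in any case. The EST probe differed from MT3 by -0.22, 0.79 and 1.82, a mean of 0.80 ± 1.02, and was above MT3 on arrays 2 and 3 only. With median centring the differences of the mRNA probe were 0.07, 0.80 and 1.86, a mean of 0.91 ± 0.90. MT-4 and MT3 stood apart by more than a factor of 2 on array 3 under both normalizations and were close on array 1. Without array 3 the mean difference of the mRNA probe was 0.59, and without array 1 it was 1.67.

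The antioxidant probes had small ratios, and their direction hung on the normalization. The name is used here for all 11 probes that are not of a metallothionein, and 6 of them were of SOD1, SOD2, GPX1 or TXN. The rest were not shown to be antioxidant enzymes. With loess, which brings the average ratio of spots of every brightness to 0, the 11 probes had a median log2 ratio of -0.17 against -0.01 for all tested probes, and 10 of the 11 were below 0, but with median centring, which shifts all spots of an array alike, the median was 0.27 and 3 of the 11 were below 0. With loess, 5 of the 11 were lower in the short photoperiod goat on every array measured, as were 22% of all tested probes, and 4 had an unadjusted p under 0.05 with a lower level, as did 9.35% of all tested probes. With median centring 0 of the 15 members were lower on every array, and the share of all tested probes was not computed for this count. Of the 15 members 0 passed an adjusted p of 0.05 in limma with loess, against 0.00668% of all tested probes (1 probe). At an unadjusted p under 0.05 with loess there were 4 members, against 18.5% of all tested probes, and 0 members passed it with a higher level, against 9.11%. With median centring 3 members passed the adjusted p, the pair of MT3 probes and GPX1, against 12.6% of all tested probes (1885 probes), and 7 members had an unadjusted p under 0.05, against 34.2%.

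Among the antioxidant probes measured on all arrays, GPX1 had the lowest mean log2 ratio by loess, but a positive one by median centring. The GPX1 probe (TC56679) was at a normalized log2 level of 16.00, 16.10 and 15.96 in the short photoperiod goats and 16.32, 16.65 and 16.53 in the natural goats. The groups did not overlap, which held in the lower direction for 3 of the 15 members and for 7.17% of all tested probes. The log2 ratios were -0.33, -0.55 and -0.57, with a mean of -0.48 ± 0.14 (SD, n = 3), an interval of -0.76 to -0.21 and a limma adjusted p of 0.163. With median centring the same spots gave a mean of 0.50 with an adjusted p of 0.0414, so the sign and the call of GPX1 both changed with this step.

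SOD1, the cytosolic superoxide dismutase, was at a normalized log2 level of 15.18, 15.11 and 15.03 in the short photoperiod goats and 15.65, 15.43 and 15.17 in the natural goats. It was lower in the short photoperiod goat of each pair by loess, although the highest short photoperiod goat reached the lowest natural goat. The mean log2 ratio was -0.31 ± 0.17 (SD, n = 3; limma adjusted p of 0.247), against 0.29 with median centring. SOD2, the mitochondrial enzyme, was measured with a pair of probes that share 30 bases (record AY221462). Probe A was at 13.28, 13.75 and 13.53 in the short photoperiod goats and 13.53, 13.70 and 13.81 in the natural goats, a mean log2 ratio of -0.17 ± 0.18 with an adjusted p of 0.482. Probe B was at 13.80, 13.76 and 13.44 against 13.96, 13.70 and 13.70, a mean of -0.12 ± 0.16 with an adjusted p of 0.597. Both SOD2 probes were lower on arrays 1 and 3 and slightly higher on array 2 by loess, their groups overlapped, and their ratios differed from each other by at most 0.10 on any array.

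TXN (NM_001009421) was measured with a pair of probes that share 15 bases. TXN probe A had an outlier mark on array 2 and was measured on arrays 1 and 3, where it stood at 15.63 and 16.12 in the short photoperiod goats and at 16.31 and 16.55 in the natural goats. Its log2 ratios were -0.68 and -0.43, a mean of -0.56 ± 0.17 (SD, n = 2; limma adjusted p of 0.204). TXN probe B was at 15.44, 15.74 and 15.84 in the short photoperiod goats and at 15.90, 15.66 and 15.97 in the natural goats, and its groups overlapped. Its log2 ratios were -0.46, 0.09 and -0.13, a mean of -0.17 ± 0.28 with an adjusted p of 0.552. The probes of TXN thus had the same sign on arrays 1 and 3 by loess but differed by up to 0.31 on an array, and with median centring both were positive, at 0.40 and 0.62.

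The 4 proteins with a thioredoxin domain did not move alike. TXNDC4 (TC61575), also known as ERp44, retains proteins in the early secretory pathway, and TXNDC12 (TC52752) is a small resident of the endoplasmic reticulum. TXNDC4 stood at a normalized log2 level of 14.45, 14.71 and 14.76 in the short photoperiod goats and 14.84, 14.93 and 15.13 in the natural goats. Its groups did not overlap, and its mean log2 ratio was -0.33 ± 0.09 (SD, n = 3), with an interval of -0.59 to -0.07 and a limma adjusted p of 0.216. TXNDC12 stood at 14.76, 14.81 and 14.77 against 14.94, 15.03 and 14.95, with log2 ratios of -0.18, -0.22 and -0.18. It had the smallest spread of the 15 members, a mean of -0.19 ± 0.02, no overlap of the groups, and an adjusted p of 0.342 (limma draws a small spread towards that of all probes). With median centring TXNDC4 was at 0.11 and TXNDC12 at 0.27.

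TXNDC17, a cytosolic protein related to thioredoxin, was higher on average, with log2 ratios of -0.23, 0.34 and 0.62 and a mean of 0.24 ± 0.44 (SD, n = 3, adjusted p of 0.521 from limma). TXNDC14 (TC59447), also known as TMX2, had ratios of 0.09, -0.14 and -0.27 and a mean of -0.11 ± 0.18. The record TC68237 is named after a thioredoxin peroxidase of the bacterium Vibrio fischeri, and its gene in the goat is not known here. Its ratios were 0.10, -0.24 and 0.08, with a mean of -0.02 ± 0.19. The groups overlapped for these 3 probes, and array 3 gave the highest ratio for TXNDC17 and the lowest for TXNDC14.

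**Figure D2:**
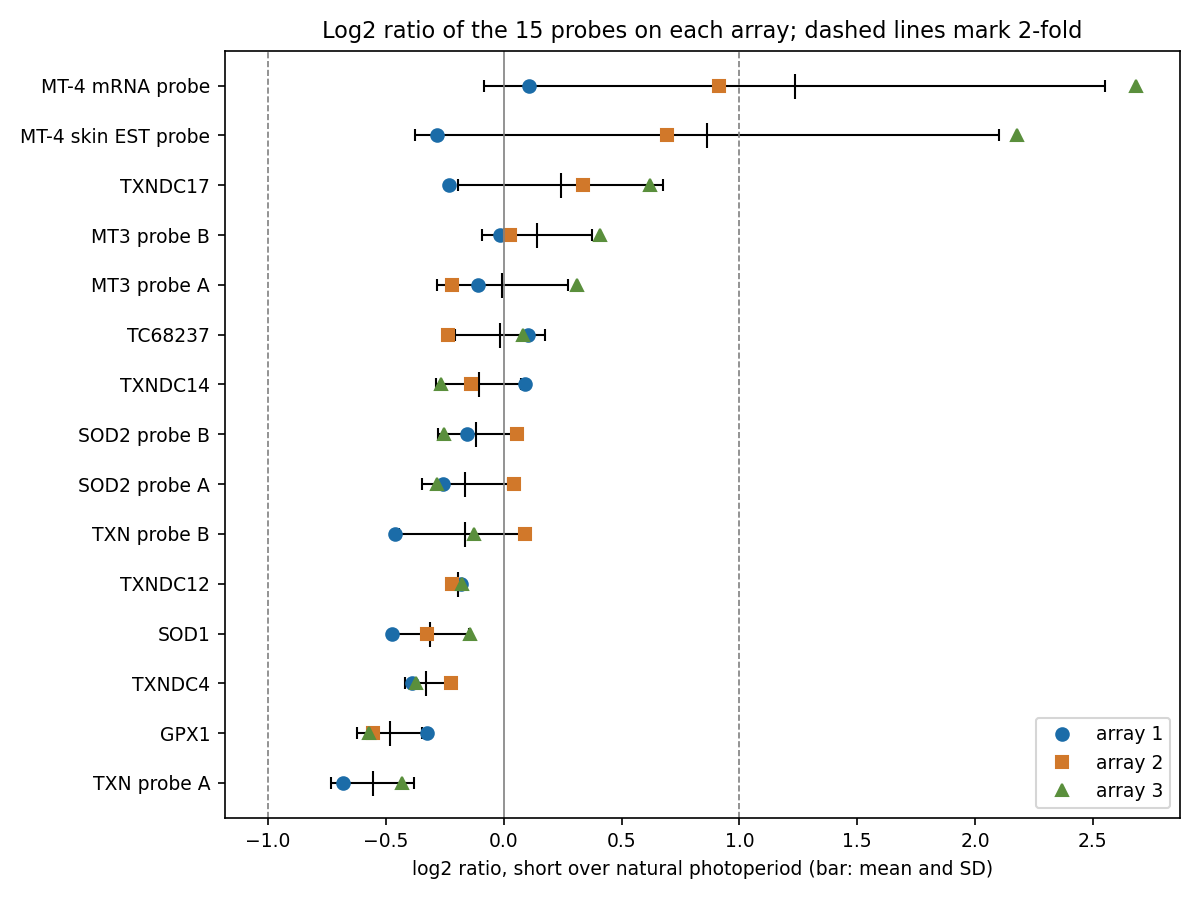
Log2 ratio of short over natural photoperiod (horizontal axis, loess normalization) of the 15 probes on each of the 3 arrays, with the mean as a tick and the SD as a bar, and dashed lines at 2-fold. The MT-4 probes had the largest spread, from 0.11 to 2.68 for the mRNA probe, GPX1 lay between -0.57 and -0.33, and most other probes lay close to 0.

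Set against the antioxidant probes, MT-4 differed by more than MT3 did. The mean of the 10 antioxidant and thioredoxin probes measured on all arrays was -0.23, -0.12 and -0.15 on arrays 1, 2 and 3 by loess. The MT-4 mRNA probe exceeded it by 0.34, 1.03 and 2.83, a mean of 1.40 ± 1.29 (SD, n = 3). MT3 exceeded it by 0.17, 0.02 and 0.51, a mean of 0.23 ± 0.25. Both differences had the same sign on 3 of 3 arrays, and the one for MT3 was smaller than its own spread. A two-sided sign test over 3 arrays cannot give a p below 0.25. The direction for MT-4 is not independent evidence, since the study selected it on these same arrays. Without array 3 the difference for MT-4 was 0.68 and without array 1 it was 1.93. The superoxide dismutase, GPX1 and TXN probes alone had a mean of -0.33, -0.14 and -0.28, and MT-4 exceeded this by 0.44, 1.05 and 2.96.

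Most members are bright spots, and this is where the normalizations part. The 1498 brightest tested probes, those with a mean log2 intensity of at least 14.7, were set apart, and 11 of the 15 members and 7 of the 11 antioxidant probes were among them. The median log2 ratio of these bright probes was 0.55 with median centring and -0.02 with loess, while the median of all tested probes was 0.00 and -0.01. Measured against that median within median centring, the MT-4 mRNA probe was at 1.20 and the EST probe at 0.90. On that scale MT3 was at 0.22 and 0.36, TXNDC17 at 0.11, GPX1 at -0.05, SOD1 at -0.26, TXN at -0.15 and 0.07, TXNDC4 at -0.44 and TXNDC12 at -0.28. The place of MT-4 above MT3, and of MT3 above SOD1 and TXNDC4, was thus kept under both normalizations, whereas the sign of 7 of the 11 antioxidant probes was not. The place of TXNDC17 was not kept either. By loess it was above both MT3 probes, at 0.24 against -0.01 and 0.14. By median centring it was below both, at 0.66 against 0.77 and 0.91. With 0 dye-swapped arrays, a dye effect that depends on brightness and a shared shift of bright genes cannot be told apart.

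**Figure D3:**
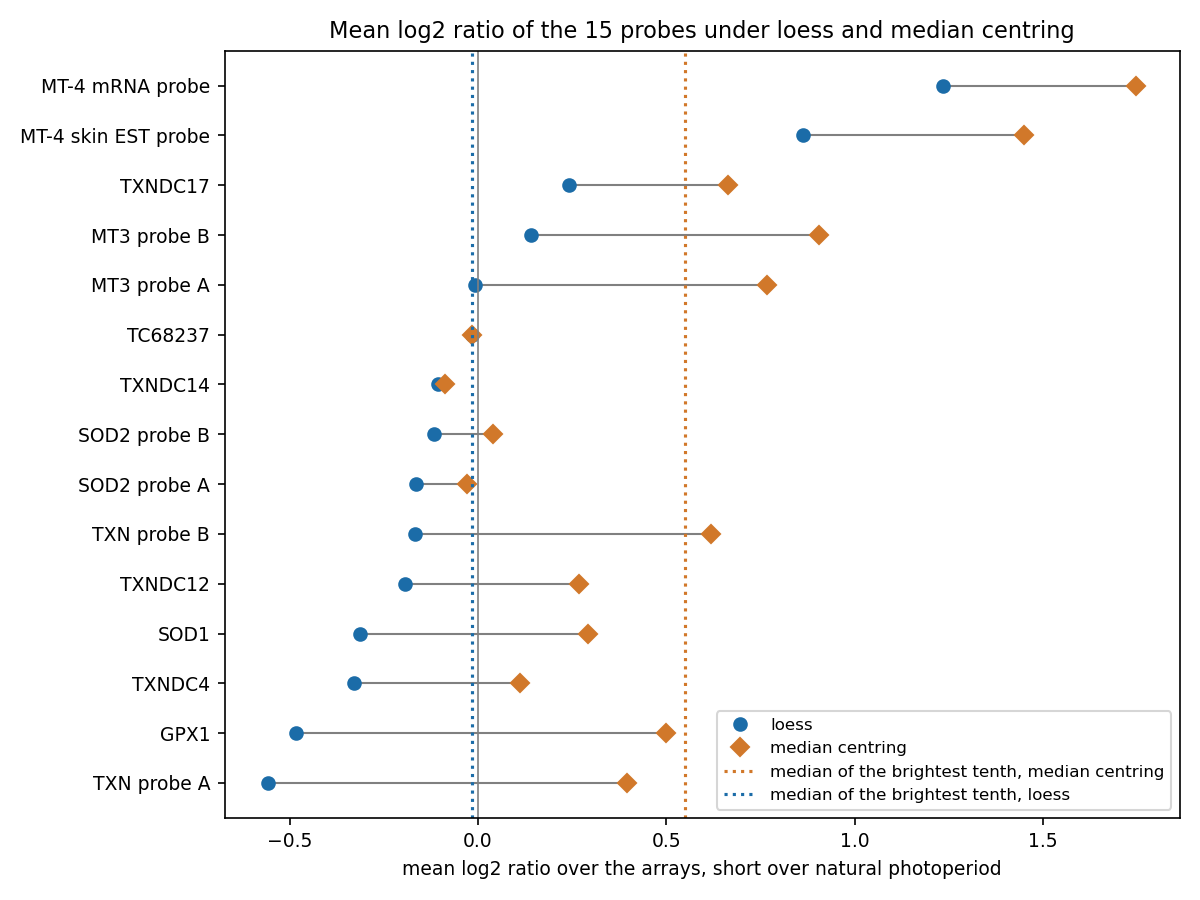
Mean log2 ratio of short over natural photoperiod (horizontal axis) of the 15 probes with loess (circles) and with median centring (diamonds), and the median of the 1498 brightest probes under each as dotted lines. GPX1 went from -0.48 to 0.50 and SOD1 from -0.31 to 0.29, while the MT-4 mRNA probe went from 1.23 to 1.75.

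Genes that handle metals beside the metallothioneins were mixed. Of 21 probes for zinc transporters, ferritins, transferrin, ceruloplasmin and copper carriers, 0 passed the test, 4 were higher and 3 lower on every array, and their median log2 ratio was -0.01, the same as that of all tested probes. By array the median of the probes measured on all arrays was not level, at -0.24, 0.11 and 0.21. Of all tested probes 21.9% were higher on every array. The zinc importer SLC39A6 had log2 ratios of 0.26, 0.38 and 0.97 (mean 0.54, adjusted p of 0.222 from limma), but a probe on another record of SLC39A6 (TC75952) had a mean of -0.05. Ferritin heavy chain (FTH1), the iron store, had a probe with ratios of 0.14, 0.45 and 0.57 (mean 0.39, adjusted p of 0.226), and its other probes under that symbol had means of 0.35 and -0.03. Among the probes lower on every array, the lowest means were those of zinc transporter ZIP1 (TC64161), at a mean of -0.33 with an adjusted p of 0.257, and serotransferrin (TC53062), at -0.27 with an adjusted p of 0.266. Another transferrin probe (TF) had ratios of -0.39, 1.97 and 0.30 and the highest mean of the list, 0.62, and a ceruloplasmin probe (CP), higher on 1 array, had the lowest, -0.43. The summed level of the list ran from 441036 to 502285 intensity units in the short photoperiod goats and from 391515 to 505150 in the natural goats, so it did not separate the groups. With median centring 5 of the 21 probes passed the test, against 12.6% of all tested probes.

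The list of glutathione pathway, linked redox and selenoprotein genes also had 0 of 8 probes past the test. Their median log2 ratio was 0.16 by loess, with 5 probes higher on every array (21.9% of all tested probes) and 1 lower (22%). It was 0.08 without array 3 and 0.59 by median centring, where 5 of the 8 passed, against 12.6% of all tested probes. Glutaredoxin 2 (GLRX2), a mitochondrial oxidoreductase, had ratios of 0.09, 0.24 and 0.65, with a mean of 0.33 and a limma adjusted p of 0.308. The 1 probe lower on every array was glutaredoxin (GLRX), which was not well above background in either dye on any array, so its ratio is not given, although it was 1 of the 5 that passed with median centring. GLRX2 was higher on all 3 arrays by loess while GPX1, which uses glutathione, was lower on all 3 by loess and higher on average by median centring.

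The tissue markers were examined beside MT-4. Of 15 probes for hair keratins and keratin-associated proteins 13 were higher on every array (21.9% of all tested probes), 7 had a mean at least 2-fold higher (0.427%), 0 passed the test and 1 was never well above background. With median centring 13 of the 15 passed, against 12.6% of all tested probes. With separate channels 1 passed, against 170 of 14868 tested probes. The median log2 ratio of the list was 0.96, and 1.60 with median centring and 0.57 without array 3. Several of these genes were selected by the study on these arrays, so their direction is not independent evidence. By array the median of the 13 probes measured on all arrays was 0.52, 0.67 and 1.52, highest on array 3 as for MT-4. The summed level of the 13 hair probes measured on all arrays ran from 668885 to 747174 in the short photoperiod goats and from 238841 to 462793 in the natural goats, and on the log2 scale it was 18.74, 18.82 and 17.87 in the natural goats of arrays 1, 2 and 3. The natural goat of array 3 was therefore lowest for the hair list as well as for MT-4, but the natural goats of arrays 1 and 2, which differed for MT-4, were alike for the hair list. The part of hair follicle content in the MT-4 ratios was not tested.

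The epidermal markers were lowest on array 3, where MT-4 was highest. Of 8 tested epidermal probes 0 passed the test, 0 were lower on every array and 4 were higher on every array (21.9% of all tested probes), but 2 of these 4, of small proline-rich protein LOC443313, were never well above background. The other 2 were keratin 14 (KRT14), a keratin of basal cells, with log2 ratios of 1.25, 0.64 and 0.16, and keratinocyte differentiation-associated protein (TC74890), with 0.71, 0.44 and 0.02. Suprabasin (TC81811) had 0.69 and -0.25 and keratin 15 (TC71873) had 0.72 and -0.65 on arrays 1 and 3, where they were measured. The PRD-SPRRII probes, also of a small proline-rich protein and not well above background everywhere, had means of -0.44 and -0.51. The median log2 ratio of the list was 0.17, and 0.31 without an offset or with only probes well above background. By array it was 0.21, 0.17 and 0.09 over the probes measured on all arrays, which leaves out suprabasin and keratin 15. Of the 8 tested probes, 4 were well above background in both dyes on every array. With median centring 3 of the 8 probes passed, against 12.6% of all tested probes. The summed level of the epidermal probes measured on all arrays ran from 126055 to 141524 in the short photoperiod goats and from 70204 to 118129 in the natural goats. The leukocyte list had 16 of 20 probes lower on every array, against 22% of all tested probes, and a summed level of 160139 to 178174 in the short photoperiod goats against 210734 to 271501 in the natural goats. Of these probes 0 passed the test, and 8 did with median centring, against 12.6% of all tested probes. With separate channels 3 passed, against 170 of 14868 tested probes. The median log2 ratio of the leukocyte list was -0.39, or -0.63 with median centring. The median was -0.28 for 17 sebaceous gland and adipocyte probes, and -0.14 without array 3. It was -0.16 for 5 blood probes, with -0.36, 0.02 and 0.22 by array. For 3 skeletal muscle probes it was 0.11, but -0.06 without array 2 and -0.20 with median centring. The part of these cells in the ratios of the members was not tested.

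**Figure D4:**
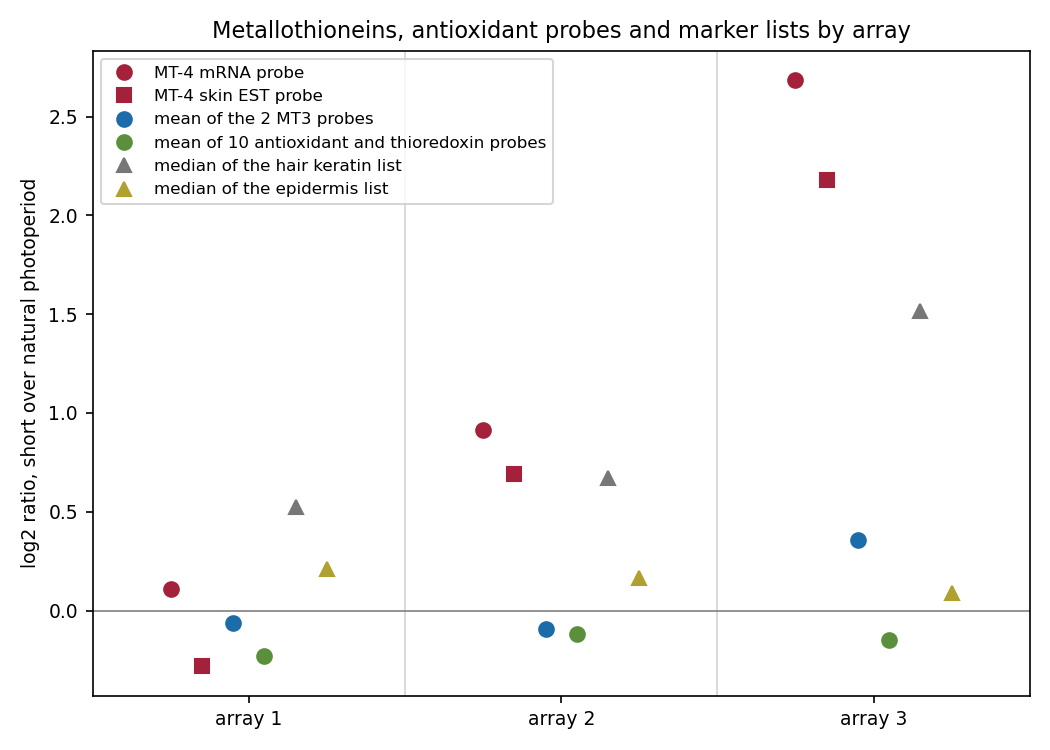
Log2 ratio of short over natural photoperiod (vertical axis, loess normalization) on each array for the MT-4 probes, the mean of the MT3 probes, the mean of 10 antioxidant and thioredoxin probes, and the medians of the hair keratin and epidermis lists. The list medians are over the probes measured on all arrays. On array 3 the MT-4 mRNA probe was at 2.68 and the hair keratin list at 1.52, while the antioxidant mean stayed between -0.23 and -0.12 on all arrays.

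The probes whose ratios were most like those of the MT-4 mRNA probe were found by the root mean square difference of log2 ratio over the 3 arrays. They were the unnamed sheep transcripts FE034476 (0.370) and EE843999 (0.372), keratin 85 (K2.12, 0.385), the MT-4 skin EST probe (0.390) and the unnamed transcript CU654728 (0.403). Keratin 85, a structural keratin of the hair shaft, had ratios of 0.55, 0.48 and 2.45. The MT-4 skin EST probe was among these, and 3 probes of other records were nearer to the MT-4 mRNA probe than its own complement was. With 3 arrays such likeness is a description of these values.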

How the data were processed

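The authors deposited the scanner output of Agilent Feature Extraction 10.7.3.1 for 3 arrays, with the mean and background intensity of each spot in both dyes and a log10 ratio of Cy5 over Cy3, and a table of log2 ratios. The log2 values of that deposited table were set against the log2 ratio of the software's processed Cy5 and Cy3 signals. Over the 14958 probes with 1 spot they were equal to within 0.001 for 99.96% to 100% of probes per array. The deposited values thus hold the scanner software's own dye normalization. The ratios reported here were computed anew from the deposited intensities with limma 3.58.1 in R 4.3.3: normexp background correction with an offset of 50, loess within each array with outlier-marked spots at weight 0, those spots then left out, spots of a probe averaged, and probes with values on at least 2 arrays kept. The levels of single goats came from the same values after Aquantile normalization between arrays. Log2 ratios were tested against 0 with lmFit and eBayes over all 14977 probes, with Benjamini-Hochberg adjustment and a threshold of 0.05. The procedure was tested on simulated data first. A dye bias that depends on brightness is removed by loess together with any true shift of bright genes.

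Median spot intensities were 4587 to 7120 in Cy5 and 2688 to 3911 in Cy3, with 38 to 91 spots per array marked as outliers and 0 saturated. All 15 members were well above background in both dyes on every array. The correlation of log2 ratios between arrays was 0.18 to 0.36 over probes. All arrays lay on 1 slide, so no slide term was fitted. The pairing of goats comes from the study, which set each goat against a fellow of the same parent, and lies in the ratio itself. Replicates are goats.

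The members and the gene lists were chosen with earlier results of these data known. Named were all metallothionein probes, every SOD, GPX1 and TXN probe, in each enzyme family and each pathway list the probes with the largest change of 1 sign on all arrays, and the 5 probes most like MT-4. A pattern for gamma-glutamyltransferase also matched a transglutaminase, which was left out of the glutathione list. The values of 1 gene of that list are not reported here. The alternatives were no background correction, no offset, Feature Extraction's own log ratio, median centring, the deposited log2 table, only probes well above background in both dyes, outlier-marked spots kept, each array left out, eBayes with trend and robust, separate channels paired and unpaired, and the brightest probe of each identifier. Figures were drawn with matplotlib 3.10.9.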

Additional observations from a re-analysis of the deposited data

How the results depend on the processing

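Median centring was the alternative that changed most. With it 3 members passed the adjusted p (0 otherwise, in every alternative), 2 were at least 2-fold higher, 10 were higher and 0 lower on every array, the antioxidant median was 0.27, the MT3 mean 0.84 and MT3 minus the antioxidant probes 0.60, and 5 metal handling and 5 glutathione probes passed, the latter with a median of 0.59. For the 2-fold and same-sign counts of this paragraph, the shares of all tested probes were computed with the main setting only. The counts under the alternatives therefore cannot be read as particular to the members. Median centring reversed SOD1 to 0.29, TXNDC12 to 0.27, TXNDC4 to 0.11, MT3 probe A to 0.77, TXN to 0.40 and 0.62, GPX1 to 0.50 and SOD2 probe B to 0.039. By construction it keeps any shift shared by bright spots; its source was not tested. MT3 probe A, at -0.01, also turned positive in Feature Extraction's log ratio and the deposited table (0.034 in both) and ran from -0.16 to 0.099 when an array was left out (0.045 without array 1), and TC68237 from -0.077 to 0.094. Leaving out each array in turn gave 0 to 2 members at least 2-fold higher, 5 to 8 lower and 1 to 4 higher on every array, and an antioxidant median of -0.27 to -0.15, with fewer arrays that have to agree. Members higher on every array numbered 2 by Feature Extraction's ratio and by the deposited table. With the brightest probe of each identifier 0 members were 2-fold higher and 0 higher on every array, since the EST probe then stands for MT-4. The median of the superoxide dismutase, GPX1 and TXN probes alone, an alternative added after seeing the data, was -0.24.

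The MT-4 mRNA probe was positive in all 13 alternatives, at 0.51 to 1.80 with adjusted p of 0.0601 to 0.670 from limma, and the EST probe in all 14, at 0.20 to 1.45. With the channels taken as unpaired samples, without the pairing as a replicate block, the MT-4 mean stayed at 1.23 and 0 members passed. The other 180 values of the main comparisons kept their side of the threshold, or moved by less than the spread of the arrays or, for counts, by less than 1.5 times.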

Other observations

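Catalase, glutathione S-transferases and peroxiredoxin 2 are on the array under their symbols, with descriptions that name only a clone, so the rule on descriptions did not reach them. Catalase (CAT), which breaks down hydrogen peroxide, had log2 ratios of -0.38, -0.02 and -0.40 by loess, with a mean of -0.27 ± 0.21 (SD, n = 3) and an adjusted p of 0.319 from limma. GSTA1, which conjugates glutathione, had a pair of probes that disagreed in sign, with means of 0.25 and -0.20 and adjusted p of 0.314 and 0.526. The GSTA1-1 probes had means of 0.09 and 0.08. Those of LOC100037663, an identifier that names no enzyme, had means of -0.10 and -0.07. With median centring both GSTA1 probes were positive, at 0.74 and 0.69 (limma adjusted p of 0.0345 and 0.0364), and those of LOC100037663 were at 0.62 and 0.60 (0.0402 and 0.0451). PRDX2 was well above background in both dyes on every array, but its values on arrays 2 and 3 were left out for outlier marks. On array 1 its log2 ratio was 0.26, and it was not tested.

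Beside the MT-4 pair, 8 pairs of probes on the array were complementary to each other over at least 40 bases. Of these, 7 pairs were tested and in all 7 both probes were well above background in both dyes on every array. Counted by single probes and not by pairs, 90.5% of all tested probes were. The median gap between the mean log2 ratios of the probes of these pairs was 0.13, and that of the MT-4 pair was 0.37.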
